A study of Homo sapiens with 12 samples.

Results

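A set of 10 genes of the contractile actin cytoskeleton, many of them known targets of serum response factor (SRF), was followed through the MCF10 progression series, 4 related lines of human breast epithelium. The genes were chosen by symbol: ACTA2, ACTG2, TAGLN, CNN1, CNN2, MYL9, TPM1, TPM2, CALD1 and ACTN1. All 10 were found among the 59427 gene symbols of the authors' table. The lines were MCF10A, a non-tumorigenic immortalised line described by the submitters as the normal stage, MCF10AT1, obtained from it by transformation with HRAS G12V, MCF10DCIS, which stands for carcinoma in situ of the ducts, and MCF10CA1a, a metastatic line. It is background knowledge that both carcinoma lines descend from the HRAS-transformed line through growth in mice, so that all 3 derived lines share that oncogene. Each stage is represented by 1 line, and per the labels the culture medium, with EGF, hydrocortisone, cholera toxin, insulin and horse serum, was common to all of them. The labels give 3 libraries per line, 12 in all, of total RNA made with a stranded kit.

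The values are TPM, the share of transcripts corrected for their length, deposited by the authors as 1 mean per line. No value therefore has an SD and no difference a p-value, and how far libraries of 1 line lie apart is unknown. The depth is unknown. Because of the length correction, levels of different genes can be set side by side. The unit has the same letters as the tropomyosin genes TPM1 to TPM4, and a number is followed by TPM only as a unit. In bulk RNA, fewer expressing cells and less RNA per cell cannot be told apart.

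Contractile cells pull on actin filaments with myosin II. Tropomyosins, caldesmon and calponins lie along the filaments and regulate the motor, transgelin and alpha-actinin bundle or crosslink them, and a regulatory light chain switches the motor on when phosphorylated. SRF binds a short DNA element, the CArG box, near the start of many of these genes. Its cofactors of the myocardin family, MRTFA and MRTFB, are held inactive by monomeric actin and released when actin assembles into filaments. RAS-ERK signalling acts through the ternary complex factors ELK1, ELK3 and ELK4. In the mammary gland the contractile set is the signature of myoepithelial cells, the basal layer that squeezes milk from the ducts.

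The CArG boxes near the annotated starts are shown because they are the element that SRF binds, and because an exact box lies near the starts of both abundant genes (CNN2, ACTN1) and one near 0 (ACTG2). RefSeq windows (GRCh38.p14, 250 bases before to 50 after a start) were held for 8 of the 10 genes, 16 windows in all. An exact box (CC, 6 bases that are each A or T, then GG, a pattern that reads the same on both strands) was present in 3 of these 16 windows, against 1.29% of 35116 windows of all genes. With 1 inner base allowed to be G or C, 5 of the 16 windows had a match, against 8.13% of all windows. Stretches with 20 bases on each side of the boxes are printed 5′ to 3′ on the gene's strand, with the boxes in capitals, for ACTG2 (chr2:73892878-73892964, plus strand), CNN2 (chr19:1026499-1026548, plus strand), an internal start of ACTN1 (chr14:68977708-68977757, minus strand) and an internal start of ACTA2 (chr10:88952815-88952914, minus strand).
ACTG2: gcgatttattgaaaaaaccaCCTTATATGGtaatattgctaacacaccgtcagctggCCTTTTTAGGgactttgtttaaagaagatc
CNN2: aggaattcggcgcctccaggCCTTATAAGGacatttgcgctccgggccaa
ACTN1: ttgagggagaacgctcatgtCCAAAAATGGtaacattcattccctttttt
ACTA2: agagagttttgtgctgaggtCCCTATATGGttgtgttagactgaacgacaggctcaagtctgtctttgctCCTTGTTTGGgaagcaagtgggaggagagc
The 2 boxes of ACTG2 begin 110 and 73 bases upstream of the start, that of CNN2 89 bases and that of the ACTN1 window 171 bases upstream. The 2 boxes of the ACTA2 window, at 121 and 71 bases, each hold 1 inner G or C and are not exact. A further inexact box, CCTAAAGAGG, lay in 1 of 4 windows of CALD1 and began 26 bases upstream of the start. That window, chr7:134711249-134711548, lies upstream of the span given for CALD1 below. No match was found in the windows held for TPM1, TPM2 and CNN1, which says only that the box is not in those 300 bases.

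The 10 genes ranged from well expressed to close to absence. ACTN1, TPM2, CNN2 and TPM1 were at 27.6 TPM or more in every line and together made up 87.9% of the summed level of the 10 genes in MCF10A. That share was 90.8% for MCF10AT1, 93.7% for MCF10DCIS and 93.8% for MCF10CA1a. The sum itself was 431, 501, 396 and 385 TPM in these lines. CALD1 and ACTA2 were intermediate, TAGLN and MYL9 low in most lines, and ACTG2 and CNN1 near 0 throughout.

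**Figure D1:**
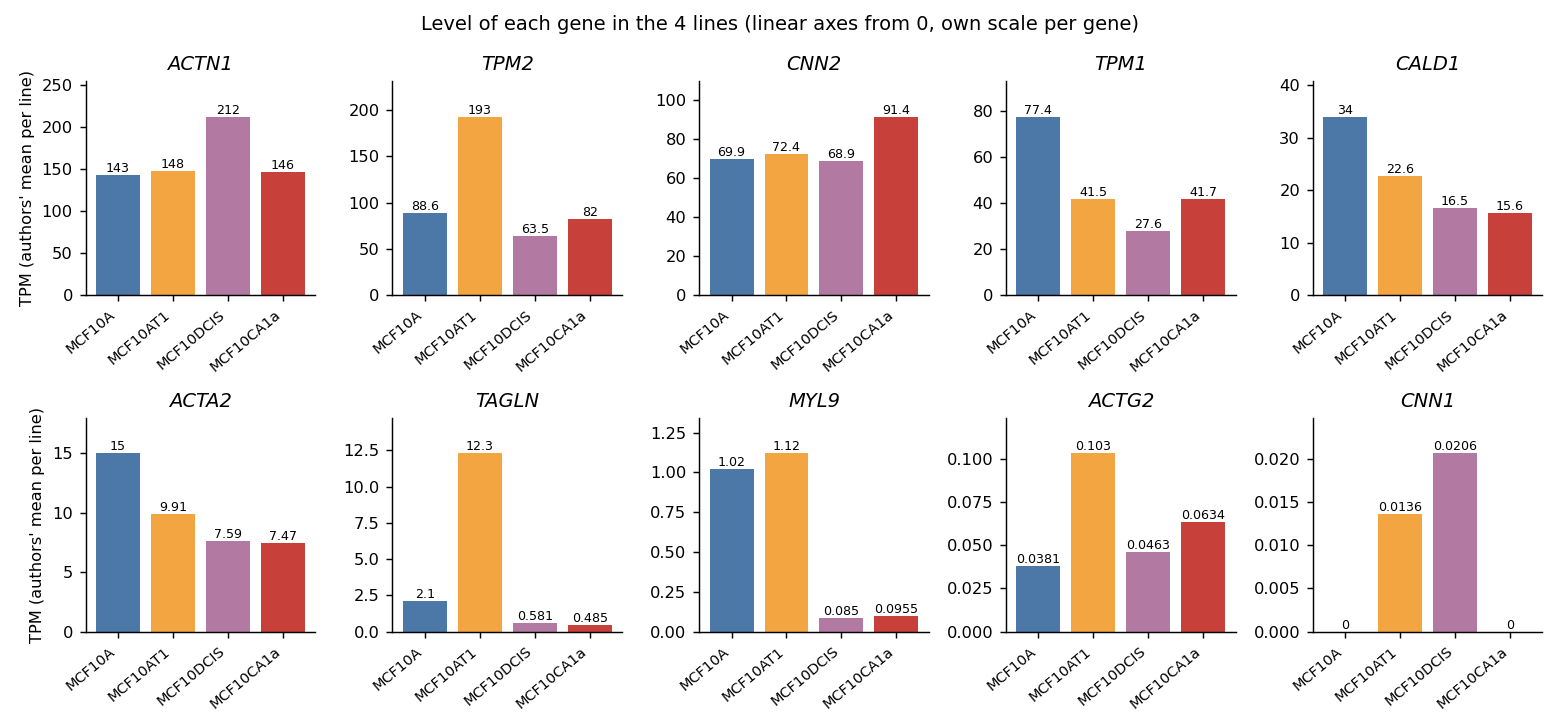
Level of each of the 10 genes in MCF10A, MCF10AT1, MCF10DCIS and MCF10CA1a, in TPM on linear axes from 0 with a scale of its own per gene; each bar is the authors' mean for a line and has no error. TAGLN and TPM2 are highest in MCF10AT1 (12.3 and 193 TPM), MYL9 is near 0 in both carcinoma lines, and ACTG2 and CNN1 stay below 0.11 TPM.

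Actins come first, as the filament itself. ACTA2, the alpha-actin of smooth muscle and myoepithelial cells, was at 15.0 TPM in MCF10A, 9.91 TPM in MCF10AT1, 7.59 TPM in MCF10DCIS and 7.47 TPM in MCF10CA1a. The parental line was the highest and the carcinoma lines, as deposited, lay close together at 0.505 (MCF10DCIS) and 0.498 (MCF10CA1a) of its level. On the rescaled scale explained below, ACTA2 was at 28.5 in MCF10DCIS and 24.0 in MCF10CA1a, against 43.6 in MCF10A. ACTG2, the gamma-actin of visceral smooth muscle, was at 0.0381, 0.103, 0.0463 and 0.0634 TPM in the same order of lines, all close to 0. Its start is the one shown above with 2 exact CArG boxes. On chromosome 10 (GRCh38, minus strand), ACTA2 lies between 88935074 and 88991339 and overlaps 3 genes of the opposite strand: STAMBPL1 (4.97 to 8.72 TPM over the lines), FAS (at most 17.9 TPM) and ACTA2-AS1 (at most 0.305 TPM). Whether the counting used strand is not stated in the sources used here, so reads of these genes may be mixed with those of ACTA2.

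Against the non-muscle actins, ACTA2 was a trace. Among 6 actin genes it held 0.277% of the summed TPM in MCF10A, and 0.257%, 0.178% and 0.171% in MCF10AT1, MCF10DCIS and MCF10CA1a. Such a share within a line does not depend on how the column was scaled. The larger shift was between the 2 cytoplasmic actins: beta-actin (ACTB) held 75.4%, 68.2%, 55.9% and 52.1% in that order, and gamma-actin (ACTG1) 24.3%, 31.6%, 43.9% and 47.8%. ACTG1 reached 0.322 of the ACTB level in MCF10A and 0.463 of it in MCF10AT1, but 0.785 in MCF10DCIS and 0.917 in MCF10CA1a. Both genes have many near-identical processed copies in the genome, and their split is uncertain to that extent.

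Transgelin (TAGLN, also called SM22-alpha), an actin-bundling protein and a standard reporter of SRF activity, varied most. It was at 2.10 TPM in MCF10A, 12.3 TPM in MCF10AT1, 0.581 TPM in MCF10DCIS and 0.485 TPM in MCF10CA1a. MCF10AT1 stood alone: 5.84 times MCF10A, with MCF10DCIS at 0.0473 and MCF10CA1a at 0.0395 of the MCF10AT1 level. On the log2(TPM + 1) scale the range over the lines was 3.16, the widest of the 10 genes. The paralog TAGLN2, the abundant form of epithelial and blood cells, was at 318, 348, 232 and 248 TPM, so that TAGLN made up 0.657% of the 3 transgelin genes in MCF10A and 3.40% in MCF10AT1, but 0.250% and 0.195% in MCF10DCIS and MCF10CA1a. TAGLN (chromosome 11, 117199321 to 117204782, plus strand) shares 446 bases with PCSK7 on the opposite strand, which was at 26.5, 24.8, 13.6 and 13.2 TPM; the part of PCSK7 reads in the level of TAGLN was not tested.

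Calponins bind actin and slow the motor. CNN1, the calponin of differentiated smooth muscle, was listed at 0 in MCF10A and in MCF10CA1a, at 0.0136 TPM in MCF10AT1 and at 0.0206 TPM in MCF10DCIS. CNN2, the broadly expressed calponin that carries an exact box near its start, was at 69.9, 72.4, 68.9 and 91.4 TPM. Its 3 lower lines lay between 68.9 and 72.4 TPM, and its highest level was 1.33 times its lowest. This was the smallest such ratio among those of the 10 genes that were above 0 in every line. These are levels as deposited. On the rescaled scale explained below, CNN2 was at 203, 230, 259 and 294 in the order of the lines. Of the summed calponin level CNN2 held 69.6% in MCF10A and 63.1% in MCF10AT1, and in the carcinoma lines 79.3% (MCF10DCIS) and 79.5% (MCF10CA1a), and the acidic calponin gene CNN3 nearly all of the remainder.

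MYL9 encodes a regulatory light chain of myosin II in smooth muscle and non-muscle cells. It was at 1.02 TPM in MCF10A, 1.12 TPM in MCF10AT1, 0.0850 TPM in MCF10DCIS and 0.0955 TPM in MCF10CA1a. Both precursor lines were thus near 1 TPM and both carcinoma lines below 0.1 TPM, at 0.0834 (MCF10DCIS) and 0.0937 (MCF10CA1a) of the MCF10A level. MYL9 was a minor form everywhere, at 0.221%, 0.384%, 0.0437% and 0.0333% of the 3 regulatory light chain genes. The neighbouring paralogs MYL12A and MYL12B, which supply the light chain of most non-muscle cells, were far more abundant. MYL12A was at 157, 105, 64.6 and 88.9 TPM and MYL12B at 304, 185, 130 and 198 TPM in the order of the lines, both lowest in MCF10DCIS. MYL9 overlaps DLGAP4-AS1 of the opposite strand over 9964 bases, a gene at 0.0186 TPM or less in every line.

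The tropomyosins TPM1 and TPM2 went different ways. TPM2 was at 88.6 TPM in MCF10A, 193 TPM in MCF10AT1, 63.5 TPM in MCF10DCIS and 82.0 TPM in MCF10CA1a, so MCF10AT1 was the highest by a factor of 2.17 over the next line. TPM1 was at 77.4, 41.5, 27.6 and 41.7 TPM, with MCF10A the highest by a factor of 1.86 over the next. TPM2 stood at 1.14 times TPM1 in MCF10A and 4.64 times in MCF10AT1, and at 2.30 and 1.97 times in MCF10DCIS and MCF10CA1a. TPM2 held 17.6%, 36.8%, 22.0% and 22.0% of the summed tropomyosin level and TPM1 15.4%, 7.93%, 9.58% and 11.2%. The cytoskeletal tropomyosin genes TPM3 and TPM4 each held between 26.3% and 37.3% in every line.

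CALD1 encodes caldesmon, which blocks myosin on actin until calcium or phosphorylation releases it. Its level was 34.0 TPM in MCF10A, 22.6 TPM in MCF10AT1, 16.5 TPM in MCF10DCIS and 15.6 TPM in MCF10CA1a, the same order of lines as ACTA2. ACTN1, the alpha-actinin of stress fibres and focal adhesions, was at 143, 148, 212 and 146 TPM. MCF10DCIS was the highest and the other 3 lines lay within 1.03-fold of MCF10A. ACTN1 held 30.1%, 37.1%, 43.4% and 32.3% of the alpha-actinin level, with ACTN4 holding nearly all of the remainder and the muscle forms ACTN2 and ACTN3 at most 0.00569 TPM.

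For differences between lines, log2(TPM + 1) of the second line was subtracted from that of the first, a scale that understates differences of low genes. Genes were compared where at least 1 of the 4 lines reached 1 TPM, which held for 13108 genes and for 8 of the 10 described here. ACTG2 and CNN1 were not compared, and MYL9 (1.12 TPM at most) only just entered, through the 2 lines in which it was high. A difference of at least 1, which is 2-fold in TPM + 1, was the limit for calling a gene higher or lower. Structural and small non-coding RNAs held 57.6% of all TPM in MCF10A and 60.0% in MCF10AT1, against 66.0% in MCF10DCIS and 59.8% for MCF10CA1a, which bears on every other gene's TPM. Over all compared genes the median difference from MCF10A was -0.066 for MCF10AT1, -0.38 for MCF10DCIS and -0.074 for MCF10CA1a, so values of MCF10DCIS are read against -0.38. A second scale, rescaled TPM, gives the same after these RNAs, ribosomal protein genes and mitochondrially encoded genes are left out. The rescaled values are about 3 to 4 times larger, and the pseudocount of 1 weighs less in them.

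MCF10AT1 against MCF10A shows 2 of the 8 genes higher and 0 lower, where 3.39% of all 13108 genes were counted as higher and 5.87% as lower. The genes were TAGLN, with a difference of 2.10, and TPM2, with 1.11. The other 6 did not reach the rule of size: TPM1 differed by -0.88, CALD1 by -0.57, ACTA2 by -0.55, MYL9 by 0.07, and CNN2 and ACTN1 by 0.05 each. With rescaled TPM the same genes were counted, TAGLN at 2.49 and TPM2 at 1.25, where 5.80% of genes were higher and 6.65% lower. The 8 genes had a median of 0.05, with values on both sides of 0.

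In MCF10DCIS against MCF10A, 0 of the 8 genes were higher and 2 lower, where 3.56% of all genes were higher and 14.8% lower. TPM1 differed by -1.45 and CALD1 by -1.0, just at the limit. TAGLN (-0.97), ACTA2 (-0.90) and MYL9 (-0.90) came close without reaching it, TPM2 differed by -0.47 and ACTN1 by 0.56. CNN2 differed by -0.02, a sign that turned with rescaled TPM (0.35). Against the median of all genes, these values stand at -1.07 for TPM1, -0.62 for CALD1, -0.59 for TAGLN, -0.52 for ACTA2, -0.51 for MYL9, -0.09 for TPM2, 0.36 for CNN2 and 0.94 for ACTN1. With rescaled TPM, MYL9 (-1.59), TAGLN (-1.16) and TPM1 (-1.11) were counted as lower and CALD1 (-0.67) was not, with 7.82% of genes higher and 10.3% lower on that scale. ACTN1 reached 0.93 there.

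In MCF10CA1a against MCF10A, 0 of the 8 genes were higher and 2 lower, where 5.97% of all genes were higher and 7.14% lower. CALD1 differed by -1.08 and TAGLN by -1.06. ACTA2 (-0.92), MYL9 (-0.88) and TPM1 (-0.88) did not reach the limit, CNN2 differed by 0.38 and ACTN1 by 0.03. TPM2 differed by -0.11, or 0.03 with rescaled TPM. On the rescaled scale MYL9 (-1.60) and TAGLN (-1.48) were counted as lower and CALD1 (-0.97) fell short, with 9.44% of genes higher and 7.79% lower. With median-of-ratios scaling and with quantile normalization 0 of the 8 genes were counted as lower, with TAGLN at -0.98 and -0.99 and CALD1 at -0.99 and -0.98. The 3 comparisons share the MCF10A value, so their likeness is in part built in. The median of the 8 genes was -0.90 in MCF10DCIS and -0.88 in MCF10CA1a.

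**Figure D2:**
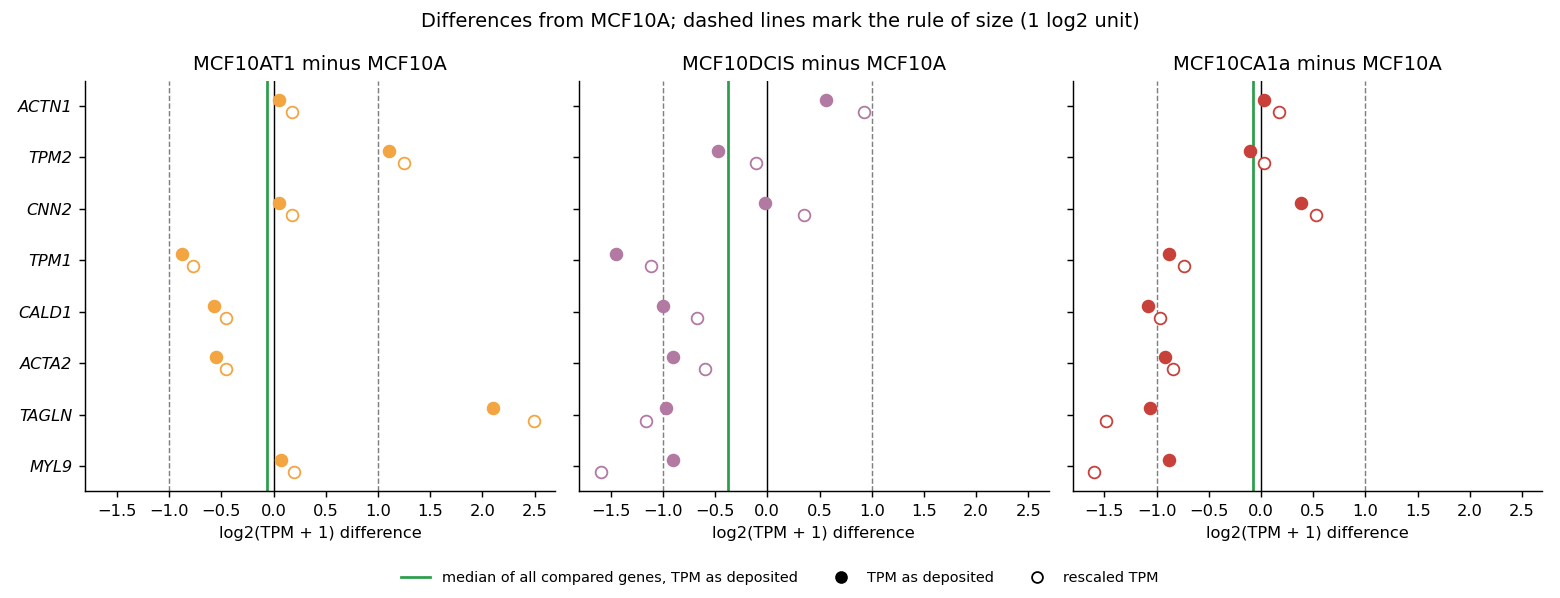
Difference of each of 8 genes from MCF10A in MCF10AT1, MCF10DCIS and MCF10CA1a, in log2(TPM + 1); filled points use TPM as deposited, open points rescaled TPM, the green line is the median of all compared genes and dashed lines mark a difference of 1. TAGLN stands at 2.10 in MCF10AT1 and at -0.97 and -1.06 in the carcinoma lines, while ACTN1 and CNN2 lie to the right of the green line in all panels.

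Among the derived lines, TAGLN and TPM2 set both carcinoma lines apart from MCF10AT1. In MCF10DCIS against MCF10AT1, TAGLN differed by -3.07 and TPM2 by -1.59, the 2 genes of 8 counted as lower, with 0 higher, where 7.51% of all genes were lower and 3.23% higher. For TAGLN, 0.236% of all compared genes had a more negative difference. In MCF10CA1a against MCF10AT1, the values were -3.16 for TAGLN and -1.22 for TPM2, again 2 of 8 lower and 0 higher, where 3.97% of all genes were lower and 6.0% higher. MYL9 came next in both, at -0.97 and -0.95, or 13.2 and 11.7 times lower in TPM, and passed the limit with rescaled TPM (-1.79 and -1.80). The median over all genes was -0.30 for MCF10DCIS and 0 for MCF10CA1a against MCF10AT1. Over chromosome 9, on which TPM2 lies, it was -0.76 and 0.01. Between MCF10CA1a and MCF10DCIS, 0 of the 8 genes were higher and 0 lower, where 6.03% of all genes were higher and 1.35% lower. The widest differences there were 0.58 for TPM1 and -0.53 for ACTN1, against a median of 0.30 over all genes.

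Medians of whole chromosomes also differed between the lines, and are given beside the genes that lie on them. CALD1 lies on chromosome 7 (134744252 to 134970728, plus strand), whose 630 compared genes had median differences from MCF10A of -0.53 (MCF10AT1), -0.88 (MCF10DCIS) and -0.58 (MCF10CA1a). CALD1 itself differed by -0.57, -1.0 and -1.08, near the median of its chromosome in MCF10AT1 and MCF10DCIS and farther below it in MCF10CA1a. TPM2, on chromosome 9 (35681992 to 35690121, minus strand), differed by 1.11 in MCF10AT1, -0.47 in MCF10DCIS and -0.11 in MCF10CA1a, beside chromosome medians of 0.39, -0.38 and 0.39. MYL9, on chromosome 20 (36541484 to 36551447, plus strand), differed by 0.07, -0.90 and -0.88 in these lines, beside medians of -0.21, -0.76 and 0.05. For TAGLN on chromosome 11 the medians were -0.01, -0.41 and -0.12, and for TPM1 on chromosome 15 (63042632 to 63071915, plus strand) -0.05, -0.05 and -0.11. For ACTA2 on chromosome 10 they were 0.03, -0.10 and 0.20. The part of chromosome number in these differences was not tested.

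Genes with the most similar profile over the 4 lines were sought for the 3 genes of widest range, among 6628 other genes that reached 10 TPM in a line, by the mean absolute difference of log2(TPM + 1) profiles after each gene's own mean is subtracted. Closest to TAGLN were LSP1 (0.124), which encodes an actin-binding protein of leukocytes, the potassium channel gene KCNMA1 (0.146) and the fibrillin gene FBN1 (0.193). All 3 peaked in MCF10AT1, at 10.7, 11.6 and 10.8 TPM, and were at or below 1.69 TPM in the other lines. Closest to TPM2 were the glutaredoxin gene GLRX (0.062), the talin gene TLN1 (0.063) and FADS3 (0.093). TLN1, which links integrins to actin, lies next to TPM2 on chromosome 9, 6826 bases away on the same strand, and was at 48.4 TPM in MCF10A, 98.4 TPM in MCF10AT1, 35.1 TPM in MCF10DCIS and 49.1 TPM in MCF10CA1a. Closest to TPM1 were the condensin gene NCAPG2 (0.003), NOMO2 (0.016) and ACAA1 (0.019). With 4 points per profile and 6628 candidates, the values describe likeness only. Between the 8 genes themselves, ACTA2 and CALD1 were closest (0.06) and TAGLN and ACTN1 farthest apart (1.17).

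The regulators upstream were expressed at moderate levels. SRF was at 7.60 TPM in MCF10A, 8.52 TPM in MCF10AT1, 6.26 TPM in MCF10DCIS and 6.89 TPM in MCF10CA1a. MRTFA was at 10.9, 9.46, 7.13 and 6.87 TPM, and MYOCD, the cofactor restricted to heart and smooth muscle, was listed at 0 in all 4 lines. MRTFB was at 15.1, 6.98, 4.10 and 6.12 TPM, highest in MCF10A, with differences of -1.02 in MCF10AT1, -1.66 in MCF10DCIS and -1.18 in MCF10CA1a. It was the 1 of 6 compared genes of this list counted as lower in each comparison with MCF10A, with 0 higher, where 5.87%, 14.8% and 7.14% of all genes were lower, although with rescaled TPM it was not counted in MCF10AT1. The list medians were 0.27, -0.40 and -0.24, beside -0.066, -0.38 and -0.074 for all genes. MRTFB lies on chromosome 16, whose genes had medians of -0.50, -0.86 and -0.60. Among the ternary complex factors, ELK3 was highest in MCF10AT1 at 18.7 TPM, against 10.6 TPM in MCF10A, a difference of 0.77.

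Other genes known as MRTF-SRF targets, mostly of the cytoskeleton, were counted in both directions. Of 18 compared genes, 1 was higher and 1 lower in MCF10AT1, 0 higher and 4 lower in MCF10DCIS, and 2 higher and 2 lower in MCF10CA1a, with medians of 0.12, -0.47 and -0.08. Over all compared genes the shares were 3.39% higher and 5.87% lower in MCF10AT1, 3.56% and 14.8% in MCF10DCIS, and 5.97% and 7.14% in MCF10CA1a, with medians of -0.066, -0.38 and -0.074. CCN2, a secreted matricellular protein also known as a YAP target, was at 9.22 TPM in MCF10AT1 and 1.53 TPM in MCF10A, a difference of 2.02, while the adhesion gene TES was at 21.9 and 54.6 TPM (-1.28). Filamin A (FLNA), an actin crosslinker, was at 2.18 TPM in MCF10DCIS and 3.47 TPM in MCF10CA1a, against 132 TPM in MCF10A (-5.39 and -4.89). TGFB1I1, a focal adhesion gene, was at 2.15 TPM in MCF10DCIS and 7.97 TPM in MCF10A (-1.51). LIMA1, which stabilises actin bundles, was at 61.0 TPM in MCF10CA1a and 11.0 TPM in MCF10A (2.38). With rescaled TPM the counts were 2 higher and 1 lower in MCF10AT1, 2 and 3 in MCF10DCIS, and 4 and 1 in MCF10CA1a, where 5.80% and 6.65%, 7.82% and 10.3%, and 9.44% and 7.79% of all genes were higher and lower.

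The other branch of SRF output, immediate early genes driven with ternary complex factors, gave 0 of 10 genes higher and 1 lower in MCF10AT1, 2 higher and 1 lower in MCF10DCIS, and 1 higher and 0 lower in MCF10CA1a. The shares of all genes were 3.39% higher and 5.87% lower, 3.56% and 14.8%, and 5.97% and 7.14%. List medians were -0.33, 0.07 and 0.41, beside -0.066, -0.38 and -0.074 for all genes. With rescaled TPM the counts were 0 higher and 2 lower, 2 and 1, and 2 and 1, beside the shares of all genes on that scale given above. IER3 was at 133 TPM in MCF10DCIS and 202 TPM in MCF10CA1a, against 47.4 TPM in MCF10A (1.47 and 2.07), and the survival gene MCL1 at 135 TPM in MCF10DCIS and 43.9 TPM in MCF10A (1.60). FOS was at 12.9 TPM in MCF10AT1, 29.6 TPM in MCF10DCIS and 25.5 TPM in MCF10CA1a, against 19.4 TPM in MCF10A. No difference of FOS from MCF10A reached 1, but in MCF10DCIS against MCF10AT1 it was 1.14.

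Of the 9 paralogs compared, 0 were counted in MCF10AT1 and in MCF10CA1a, and 2, MYL12A (-1.27) and MYL12B (-1.22), were lower in MCF10DCIS, where 14.8% of all genes were lower and where no paralog was counted with rescaled TPM.

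**Figure D3:**
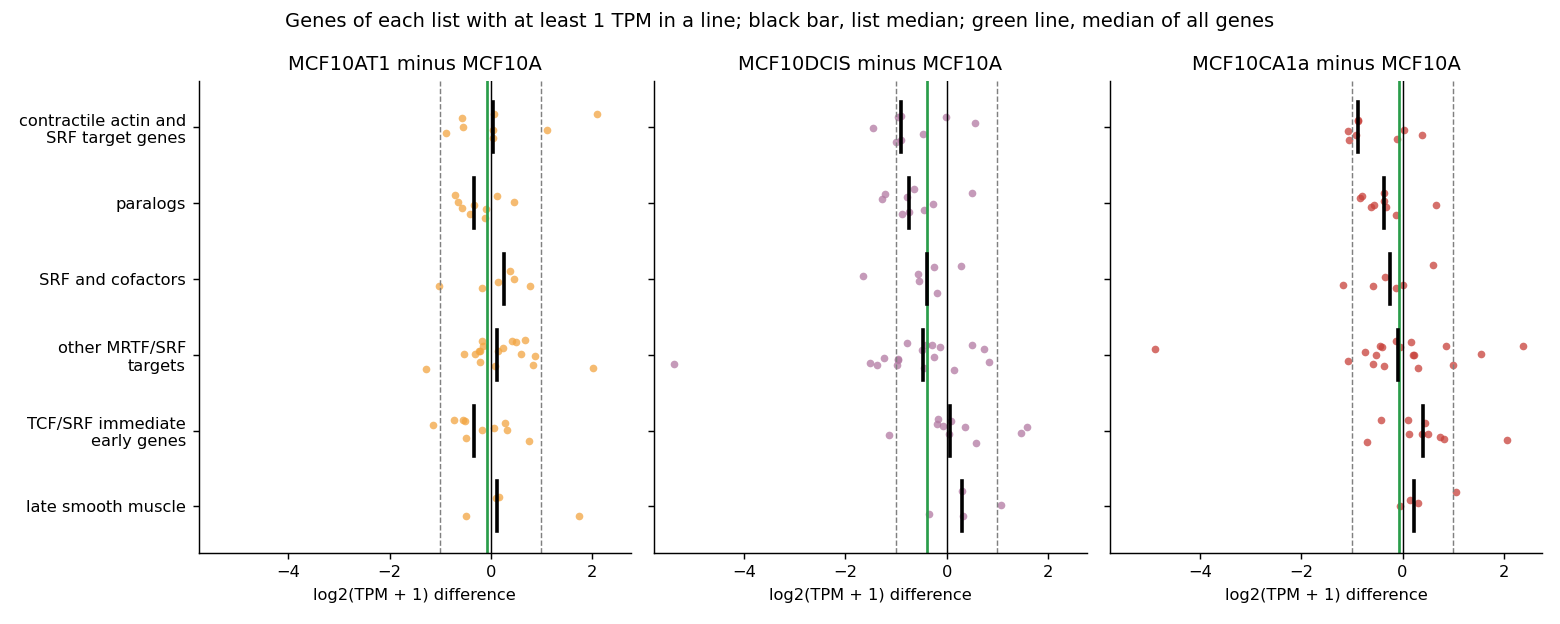
Difference from MCF10A of the compared genes of 6 lists in MCF10AT1, MCF10DCIS and MCF10CA1a, in log2(TPM + 1); each point is 1 gene, black bars are list medians, the green line is the median of all compared genes and dashed lines mark a difference of 1. The isolated points at -5.39 and -4.89 are FLNA, and the point at 2.38 in MCF10CA1a is LIMA1.

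The late contractile programme of smooth muscle was near absence in the 4 lines. Of 13 genes of that list, ACTG2 and CNN1 among them, 9 were below 1 TPM in every line. MYH11, the smooth muscle myosin heavy chain, was at most 0.00681 TPM, desmin (DES) at most 0.0386 TPM and LMOD1 at most 0.0130 TPM. Of the 4 compared genes, MYLK, the kinase that phosphorylates the regulatory light chain, was at 2.89 TPM in MCF10AT1, against 0.166 TPM in MCF10A, a difference of 1.74. Smoothelin (SMTN) was at 46.1 TPM in MCF10DCIS (1.08) and 45.1 TPM in MCF10CA1a (1.05), against 21.3 TPM in MCF10A. MYLK was thus the 1 of 4 genes higher in MCF10AT1 and SMTN the 1 of 4 in both carcinoma lines, with 0 lower, where 3.39%, 3.56% and 5.97% of all genes were higher. CSRP1 was at 64.5 to 80.0 TPM and PPP1R12B at 1.98 to 3.17 TPM.

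The lines carried epithelial markers, and markers of other contractile or stromal cells were mostly near 0. The 9 basal epithelial markers each reached 1 TPM in at least 1 line and summed to 1937, 1346, 2765 and 2213 TPM in the order of the lines. KRT5 was at 126 to 768 TPM. The basal and myoepithelial keratin KRT14 was at 57.8 TPM in MCF10A, 24.6 TPM in MCF10AT1, 6.62 TPM in MCF10DCIS and 4.75 TPM in MCF10CA1a. Of the 9 markers, 1 was higher and 3 lower than MCF10A in MCF10AT1, and 4 were higher and 2 lower in each carcinoma line. Higher in both carcinoma lines were KRT17, TP63, ITGA6 and ITGB4. Over all genes 3.39%, 3.56% and 5.97% were higher and 5.87%, 14.8% and 7.14% lower in the 3 comparisons. The list medians were -0.37, 0.63 and 0.97. The luminal list reached 1 TPM for 9 of 10 genes in at least 1 line and summed to 2457, 1054, 1196 and 1882 TPM. Of these 9, 0 were higher than MCF10A and 7, 5 and 4 lower in the 3 comparisons, beside the same shares of all genes. The list medians were -1.17, -1.26 and -0.59. With rescaled TPM 7, 4 and 4 were lower and 0, 0 and 1 higher. ELF3 was at 222, 10.9, 17.8 and 50.1 TPM and CD24 at 299, 24.3, 8.27 and 30.6 TPM. MUC1 was at 123, 55.1, 11.2 and 0.438 TPM. Of 9 fibroblast markers, 7 were below 1 TPM in all lines, with COL1A2 at most 0.0408 TPM and LUM at most 0.0579 TPM. The summed level of the fibroblast list was 16.6 TPM in MCF10A, 11.5 TPM in MCF10AT1, 3.57 TPM in MCF10DCIS and 4.34 TPM in MCF10CA1a, most of it from FAP in MCF10A. The other 8 markers of that list were highest in MCF10AT1, where TAGLN peaked. COL1A1 was at 3.22 TPM there, against 0.674 TPM in MCF10A (1.33), 2.78 TPM in MCF10DCIS and 2.58 TPM in MCF10CA1a. The other 7 were at most 0.154 TPM, where levels have no known precision. Of 7 pericyte and vascular smooth muscle markers 4 stayed below 1 TPM, and MCAM was at 8.34, 4.70, 0.186 and 0.0550 TPM, the same order of lines as ACTA2 and CALD1. NOTCH3, at 2.10, 5.97, 0.968 and 16.9 TPM, and RGS5, at 1.65, 2.76, 1.53 and 1.83 TPM, did not follow that order. That list summed to 12.6, 13.6, 3.01 and 18.8 TPM. Of 5 endothelial and 5 leukocyte markers, 4 and 2 stayed below 1 TPM, with CDH5 at most 0.0342 TPM and PTPRC at most 0.0128 TPM. The endothelial marker PECAM1 was at 3.79, 0.866, 2.05 and 1.54 TPM in the order of the lines. Among the leukocyte markers, CORO1A was at 37.0, 2.82, 2.81 and 8.90 TPM. CD14 was at 11.9, 6.83, 3.38 and 0.224 TPM and CD68 at 5.50, 3.78, 2.87 and 6.41 TPM. The endothelial and leukocyte lists summed to 4.75, 0.936, 2.14 and 1.57 TPM and to 54.4, 13.4, 9.06 and 15.5 TPM. The part of any of these markers' cells in the levels of the 10 genes was not tested.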

How the data were processed

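RNA-seq of 4 MCF10 lines was analysed from 1 table of TPM that the authors deposited with 1 mean per line, per the file headers. The build was hg38 and the tools included edgeR and STAR, per the submitters' processing notes. Tool versions, the annotation, the program that made the TPM and any use of strand were not stated in the sources used here. From the deposited TPM, log2(TPM + 1) differences were computed for 6 pairs of lines in Python 3.11.15 with pandas 2.3.3 and numpy 2.4.6. The calculation was tested on simulated data without noise, which checks the arithmetic only and not how the rule behaves on libraries. Genes with at least 1 TPM in at least 1 line were compared (13108), and a difference of 1 was the rule of size. No test across libraries could be made on means, so limma was not run. Alternatives were a pseudocount of 0.1, filters of 0 and 5 TPM, rescaled TPM, median-of-ratios scaling, quantile normalization and a 1.5-fold rule.

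The genes and lists were chosen with earlier results of these data known. Results for 1 related gene list are not reported here. Named genes are the 10 genes, their paralogs, SRF and its cofactors, up to 2 genes per list and comparison with the largest difference past the rule and at least 5 TPM, and the 3 nearest profiles. Markers at their highest level, KRT17, ITGA6, RGS5, COL1A1, PECAM1, CD68, FOS, MYLK, ELK3, CSRP1 and PPP1R12B were named after their values were seen. So were the genes overlapping or next to the 10. Positions are from GENCODE release 29 (GRCh38), the build that hg38 denotes.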

Additional observations from a re-analysis of the deposited data

How the results depend on the processing

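No paired analysis was possible because the table holds 1 mean per line, and leaving out each library was not run for the same reason. Of 240 differences under an alternative (48 differences of 8 genes, 5 alternatives), 212 kept their side of the rule of size, of which 201 also kept their sign. The 1.5-fold rule moves only the limit, so it could not change a sign. The 11 that changed sign were differences under the rule (CNN2, MYL9, TPM1 and TPM2), and 0 counted differences turned round. In MCF10DCIS against MCF10A, the 2 genes counted as lower became 4 with a pseudocount of 0.1, 1 with median-of-ratios scaling, 1 with quantile normalization and 5 with a 1.5-fold rule. ACTN1 there was counted as higher, 1 gene against 0, with median-of-ratios scaling (1.02). In MCF10CA1a against MCF10A the 2 lower genes became 0 with median-of-ratios scaling and 0 with quantile normalization (TAGLN -0.98 and -0.99, CALD1 -0.99 and -0.98), and 5 with a 1.5-fold rule. In MCF10AT1 against MCF10A, 1 gene (TPM1, -0.88) was lower with a 1.5-fold rule. A smaller pseudocount acts on low genes by construction: MYL9 was -2.60 in MCF10DCIS and -2.52 in MCF10CA1a with 0.1. With a filter of 5 TPM fewer genes are tested, so the counts over all genes fall and do not give a change in share. Genes higher than MCF10A numbered 275 against 444 with the main filter in MCF10AT1. They numbered 310 against 467 in MCF10DCIS and 514 against 783 in MCF10CA1a. In MCF10CA1a against MCF10DCIS, 117 genes were lower, against 177. The depth is unknown, so levels below about 1 TPM (MYL9, ACTG2, CNN1, and TAGLN in the carcinoma lines) have no known precision.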

Other observations

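The antisense gene TPM1-AS, which shares 3354 bases with TPM1 on the opposite strand, was at 0.583 TPM in MCF10A, 0.112 TPM in MCF10AT1, 0.0496 TPM in MCF10DCIS and 0.0494 TPM in MCF10CA1a, highest in the line where TPM1 was highest. These levels lie below 1 TPM and have no known precision, and without a known strand setting reads of the 2 genes cannot be told apart.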
